A study of Mus musculus with 25 samples.

Results

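The Rab GTPase genes were examined in RNA from FACS-sorted microglia, the resident macrophages of the brain, of mice that lack Bin1 in neurons. Members were all genes whose symbol is Rab followed by digits and at most a short letter suffix, with at least 1 count in at least 10 of the 23 mice. Of 59 such symbols in the table, 53 met this rule, out of 43411 genes in all. Of the other 6 symbols, Rab7b, Rab29 and Rab44 had no count in any mouse, and Rab38, Rab27b and Rab39b had counts in 3, 7 and 8 mice. The 3 genes that mark the set, Rab5a, Rab5c and Rab7, were all present and had counts in every mouse.

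RNA was sequenced from 1 library per mouse, at 3 months of age, and all mice were of the strain B6.129S6-Bin1tm2Gcp/J crossed with FVB/N-Tg(Thy1-cre)1Vln/J. Homozygous Bin1-cKO mice (Homo) were Bin1flox/flox and Thy1-Cre+ (n = 10, 5 females and 5 males), heterozygous Bin1-cKO mice (Het) were Bin1flox/wt and Thy1-Cre+ (n = 7, 4 females and 3 males), and WT littermates were Bin1flox/wt and Thy1-Cre- (n = 6, 2 females and 4 males). The WT mice thus carried 1 floxed allele without Cre, and every mouse carried at least 1 floxed allele. The Thy1 promoter drives Cre in neurons, so the recombined allele is directed to neurons and not to the CD11b+ CD45med cells that were sorted, and a Cre+ group with no floxed allele was not analysed here. The animal numbers of all WT and Het mice lie in the 200s and those of all Homo mice in the 300s (6 mice) or 400s (4 mice), so the effect of genotype and of anything that goes with these number ranges cannot be told apart. Replicates are separate mice, named F or M for sex with a number.

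Rab GTPases are small membrane switches. In the GTP-bound state each sits on a particular set of membranes and recruits effectors that tether, move and fuse vesicles, and guanine nucleotide exchange factors (GEFs) turn them on while GTPase-activating proteins (GAPs) turn them off. Rab5 marks early endosomes and young phagosomes, Rab7 replaces it as these mature towards the lysosome, and Rab4 and Rab11 return cargo to the surface. Microglia use this route to take up and digest debris and synaptic material. BIN1 itself is a membrane-bending protein of endocytosis that binds RIN3, a GEF of Rab5.

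The promoters of the Rab5 genes are shown because Rab5c and Rab5b had the largest rises described next and Rab5a is their closest relative. The 250 bases before the RefSeq start of each (GRCm38.p6) are given 5′ to 3′ on the strand of the gene, from chr17:53478984-53479233 (+) for Rab5a, chr10:128696269-128696518 (-) for Rab5b and chr11:100738216-100738465 (-) for Rab5c. Capitals mark CACGTG (E-box), TGACGTCA (cAMP response element), TGACTCA (AP-1) and CCAAT, each searched on both strands, so that ATTGG is CCAAT on the other strand.
Rab5a: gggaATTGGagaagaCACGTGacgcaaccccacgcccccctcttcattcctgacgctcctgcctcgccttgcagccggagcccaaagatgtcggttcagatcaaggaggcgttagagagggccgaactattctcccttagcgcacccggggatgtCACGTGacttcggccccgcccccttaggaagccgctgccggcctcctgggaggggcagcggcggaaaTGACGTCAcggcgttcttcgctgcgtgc
Rab5b: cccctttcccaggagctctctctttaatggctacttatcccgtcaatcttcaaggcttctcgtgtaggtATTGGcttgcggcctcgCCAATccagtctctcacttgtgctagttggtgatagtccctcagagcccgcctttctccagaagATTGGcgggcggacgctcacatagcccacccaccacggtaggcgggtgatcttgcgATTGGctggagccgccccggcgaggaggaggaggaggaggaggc
Rab5c: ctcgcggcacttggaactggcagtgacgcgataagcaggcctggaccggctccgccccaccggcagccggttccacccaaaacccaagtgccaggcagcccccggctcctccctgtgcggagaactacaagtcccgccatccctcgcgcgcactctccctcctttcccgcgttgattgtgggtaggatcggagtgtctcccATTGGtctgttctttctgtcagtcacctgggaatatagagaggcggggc

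Rab5a held CACGTG 2 times and TGACGTCA 1 time, whereas the windows of Rab5b and Rab5c held neither of these, and none of the 3 held the AP-1 motif. The CCAAT box, a search chosen after the windows had been looked at, occurred 1 time in Rab5a, 4 times in Rab5b and 1 time in Rab5c. None of the marked stretches overlap each other. Over all 32851 promoter windows of this length, 6.02% held CACGTG, 1.55% TGACGTCA, 4.46% TGACTCA and 33.8% CCAAT. The 46 members with a window had 58 windows, since some have more than 1. Of these windows 5, 2, 2 and 24 held the motifs, in the same order (8.62%, 3.45%, 3.45% and 41.4%). These are matches of letters, and no binding was measured.

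Total counts per mouse ran from 10812969 to 16734846, with a median of 13477985. The sorted cells carried the microglial markers P2ry12, Tmem119, Cx3cr1, Csf1r and Aif1. Cx3cr1 was at 7976 to 11873 CPM (counts relative to library depth after TMM normalization) in WT, 7580 to 10303 in Het and 5683 to 7160.0 in Homo mice. It was lower in Homo than in WT mice (-0.51 ± 0.07, adjusted p = 0.000182), as were P2ry12 (-0.33), Tmem119 (-0.43) and Csf1r (-0.50) at an adjusted p below 0.05, while Aif1 was at 0.04 ± 0.08 (adjusted p = 0.799). The 8 neuronal markers summed to 11.7 to 35.2 CPM in WT, 12.1 to 31.3 in Het and 4.29 to 8.42 in Homo mice, below all WT and Het mice, with 3 of the 5 tested lower and none of the 8 at 0 in all mice of a group. Of the other lists, 1 of 4 monocyte and neutrophil markers tested was higher (summed 4.63 to 20.2 CPM in WT, 4.43 to 29.0 in Het and 11.8 to 56.0 in Homo mice), 2 of 4 oligodendrocyte markers and the 1 endothelial marker tested were lower, and no astrocyte or border macrophage marker (3 tested of each) was called by edgeR. Of 9 immediate-early genes tested, 8 were higher in Homo mice, where their sum was 578 to 13030 CPM against 441 to 609 in WT and 449 to 560 in Het mice. Fos stood at 824 to 1459 CPM in Homo F1, F2, M1 and M2 and below 10 CPM in the other 19 mice. Bin1 itself was read in these cells at 600 to 814 CPM in WT, 629 to 747 in Het and 327.6 to 673 in Homo mice, although Cre is directed to neurons. It was lower in Homo than in WT (-0.60 ± 0.12, adjusted p = 0.00173) and Het mice (-0.53 ± 0.11, adjusted p = 0.00154), and 8 of the 10 Homo mice lay below every WT and Het mouse. The part of these shifts in the results that follow was not tested, except where a fit without the 4 mice with high Fos is given. In bulk RNA of sorted cells, fewer cells of a type and less RNA per cell cannot be told apart.

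The first comparison asked how microglial Rab transcripts differ when both Bin1 alleles are deleted in neurons. Of the 53 members, 42 had enough counts to be tested among 12908 genes. In Homo against WT mice 7 of them were called higher at an adjusted p below 0.05, Rab5c, Rab5b, Rab8b, Rab6b, Rab18, Rab27a and Rab1a, and none was called lower. Those 7 are 16.7% of the members tested, where 5.66% of all genes tested were called higher and 7.09% lower. With no member called lower by edgeR's quasi-likelihood test, 2 members had a lower value at an unadjusted p below 0.05, Rab1b (p = 0.0193) and Rab4a (p = 0.0336), and DESeq2 and limma-voom also called none lower. Most differences were small. Of the 42 members 29 had a positive and 13 a negative log2 fold change, with a median of 0.07 against 0.01 over all genes, and 20 were within 0.1 of no change. At a fold change above 1.5 as well, the rule for differentially expressed genes (DEGs), Rab5c alone remained, where 1.65% of all genes were higher by that rule. Groups of mice seldom separated fully. No member had all 10 Homo mice above all 6 WT mice, which held for 0.674% of all genes, nor above all 13 other mice, which held for 0.403%.

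Rab5c (chr11:100715009-100738215, minus strand, GRCm38), a Rab of early endosomes and phagosomes, had the largest rise. Its level was 11.3, 12.98, 9.30, 22.1, 10.2 and 11.4 CPM in the 6 WT mice and 15.3, 8.80, 11.0, 15.3, 13.1, 15.1 and 13.9 CPM in the 7 Het mice. In the Homo mice it was lowest at 14.9, had a median of 25.1 and was highest at 35.6 CPM. Of the Homo mice 9 lay above every Het mouse, and 6 above every WT mouse because WT M2 stood at 22.1 CPM. The mean was 12.9 ± 4.70 (SD, n = 6) in WT, 13.2 ± 2.50 (n = 7) in Het and 24.6 ± 5.80 (n = 10) in Homo mice. The log2 fold change of Homo against WT was 0.92 ± 0.19 (SE), 1.89-fold, with an adjusted p of 0.00233 by edgeR's quasi-likelihood test. It stayed called in each of the 23 fits that left out 1 mouse (0.85 to 1.14) and in all 11 other alternatives, among them the fit without the 4 Homo mice with high Fos and the fits with either animal-number range alone.

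Rab5b (chr10:128677175-128696264, minus strand), a close relative of Rab5c with the same membrane, also rose. WT mice had 51.7, 61.8, 59.9, 53.2, 61.6 and 62.7 CPM, and Het mice 51.1 to 61.6 CPM with a median of 55.4. Homo mice ran from 39.3 over a median of 85.6 to 118 CPM. Of these, 9 were above every WT and Het mouse, while Homo M4 was below all of them at 39.3 CPM. The SD was 23.8 CPM in Homo and 4.79 in WT mice. The log2 fold change was 0.55 ± 0.15 with an adjusted p of 0.0177, and without WT F1 the call was lost (adjusted p = 0.0542, log2 fold change 0.51). The size differed between the animal-number ranges, at 0.73 with the Homo mice of the 300s alone and 0.20 with those of the 400s alone. The call was lost with the 400s, which hold Homo M4, and without the 4 mice with high Fos (0.41). Mice of the ranges overlapped, since Homo F4 (78.2 CPM) and F5 (93.0) of the 400s lay above F1 (73.8) and F2 (72.1) of the 300s. Rab5b was called in 9 of the 11 other alternatives. Of the 50-base stretches of its exons 9.80% also occur in other transcripts, mostly those of Gm13991, so a small part of its reads may be shared.

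Rab5a (chr17:53479234-53507680, plus strand), the best known Rab5, had the highest level of the 3 and the smallest difference. It stood at 97.7 to 133 CPM in WT mice (median 118), 97.9 to 136 in Het mice (median 114) and 126 to 155 in Homo mice (median 135), and 6 of the Homo mice were above every WT mouse. The log2 fold change of 0.22 ± 0.08 against WT did not pass (adjusted p = 0.0700), and that of 0.25 ± 0.08 against Het did (adjusted p = 0.0182). As a level per length (counts per kilobase of exon, scaled to the same total in every mouse), which allows genes to be set side by side, Rab5a, Rab5b and Rab5c stood at 64.6 ± 7.41, 39.7 ± 3.09 and 16.9 ± 6.67 in WT mice and at 80.4 ± 5.75, 61.5 ± 16.7 and 34.3 ± 8.10 in Homo mice. Their sum on that scale was 121 ± 12.6 in WT, 121 ± 13.7 in Het and 176 ± 18.7 in Homo mice, and the 10 Homo values (150 to 203) lay above all WT (103 to 135) and Het (108 to 144) values. Rab5c made up 13.8% ± 4.38 of this sum in WT, 14.6% ± 2.70 in Het and 19.5% ± 4.26 in Homo mice, ranges that overlap. The level per length has no TMM normalization, without which the median log2 fold change of all genes is 0.11 and not 0.01. By CPM, which has it, Homo M4 had 130, 39.3 and 26.0 for Rab5a, Rab5b and Rab5c, and Het M3 134, 61.6 and 15.1. The summed CPM of Homo M4 was thus the lower, so the full separation did not hold there. No share over all genes was counted for this sum, and these are descriptions with no test.

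**Figure D1:**
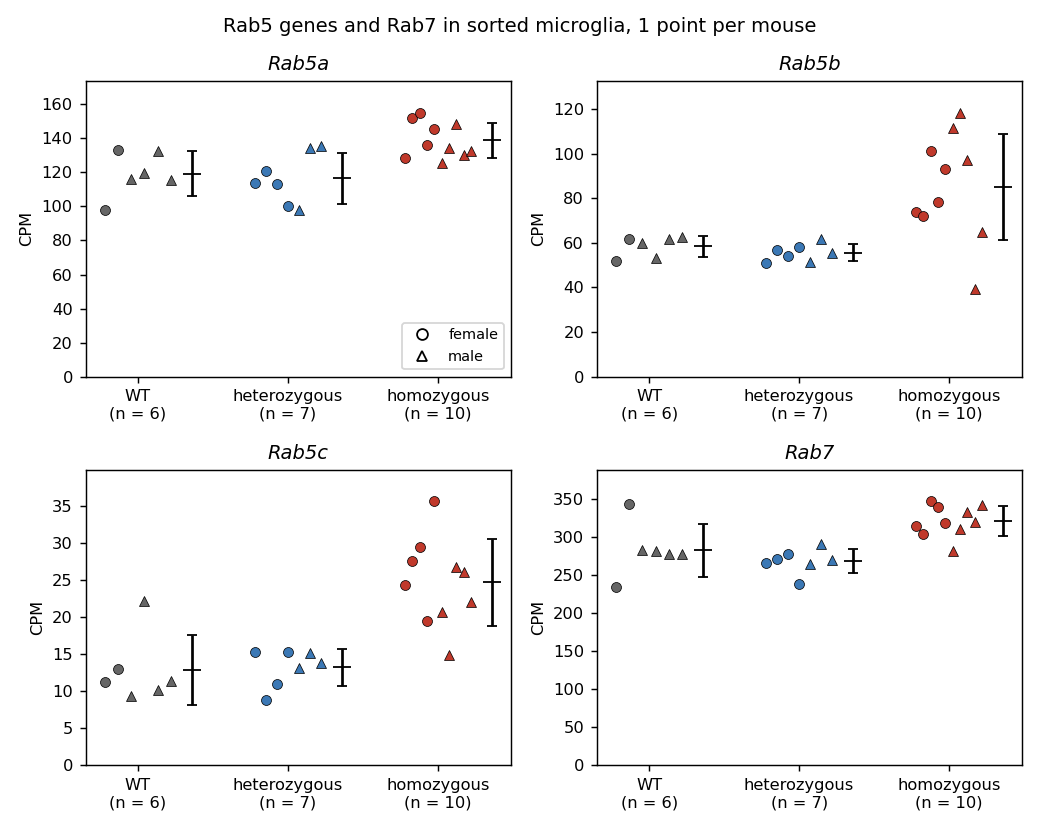
Level of Rab5a, Rab5b, Rab5c and Rab7 in each mouse (vertical axis, CPM from 0) by genotype (horizontal axis), with females as circles, males as triangles, and bars for the mean and SD of each group. Rab5c runs from 14.9 to 35.6 CPM in Homo mice with a single WT mouse at 22.1 CPM, and Rab5b is above every other mouse in 9 of 10 Homo mice.

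Of the 8 Rab genes of early endosomes and phagosomes tested, 2 rose and none fell against WT (25.0%, where 5.66% of all genes rose and 7.09% fell), and 4 rose against Het (50%, where 11.1% did). Besides the Rab5 genes these were Rab20, Rab21, Rab22a, Rab24 and Rab31, with log2 fold changes against WT from -0.09 (Rab24) to 0.18 (Rab20), none called. Rab31, a relative of Rab22a that acts between the trans-Golgi network and endosomes, was at 233 to 275 CPM in WT, 204 to 250 in Het and 238 to 300 in Homo mice. It rose against Het mice (0.29 ± 0.06, adjusted p = 0.00133) and was at 0.08 ± 0.06 against WT (adjusted p = 0.446). The Het mice were the low group, since 6 of 7 lay below every WT mouse.

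None of the 7 recycling Rab genes tested passed against WT or Het mice. Of all genes, 5.66% were called higher and 7.09% lower against WT, and 11.1% and 11.7% against Het. The recycling genes tested were Rab4a, Rab4b, Rab11a, Rab11b, Rab12, Rab14 and Rab35, of which Rab11b had the highest fold change against WT (0.17 ± 0.07, adjusted p = 0.138). Rab4a, which takes receptors straight back to the surface, had the lowest, -0.36 ± 0.16 (adjusted p = 0.145). WT mice had 9.41 to 12.1 CPM of it and Homo mice 5.32 to 13.1, with 7 of the 10 below every WT mouse and Homo M5 above every WT mouse. Without Homo M5 it was called lower (-0.49, adjusted p = 0.0257).

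Rab7 (chr6:87999106-88045270, minus strand), the Rab of late endosomes and lysosomes, was one of the most abundant members. It was read at 235, 343, 282, 282, 277 and 277 CPM in WT mice, at 238 to 290 CPM in Het mice (median 269) and at 281 to 346 CPM in Homo mice (median 319). Of the Homo mice 9 were above every Het mouse but only 1 was above WT F2, the WT mouse at 343 CPM. It rose against Het (0.26 ± 0.06, adjusted p = 0.00480) and did not pass against WT (0.18 ± 0.07, adjusted p = 0.0746), where leaving out WT F2 brought it past the threshold (0.26, adjusted p = 0.0129) and so did leaving out Homo M1 (0.20). Of its 50-base exon stretches 12.7% occur in other transcripts, mostly the pseudogene Rab7-ps1.

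Rab32, which serves lysosome-related organelles and phagosomes, had Homo mice on both sides of the other groups. WT mice had 69.2, 74.6, 67.1, 66.9, 70.9 and 65.7 CPM, Het mice 53.2 to 66.5 (median 57.5) and Homo mice 47.4 to 135 (median 99.7). Of the Homo mice 8 stood above every WT and Het mouse, and the other 2, F5 at 47.4 and M5 at 51.5 CPM, stood below every one. It rose against Het (0.70 ± 0.16, adjusted p = 0.00292) and missed the threshold against WT (0.48 ± 0.16, adjusted p = 0.0532). Leaving out either Homo F5 (0.55) or Homo M5 (0.57) brought the comparison with WT past the threshold, with an adjusted p as low as 0.0105. The other late members tested, Rab9, Rab34, Rab39 and Rab42, had log2 fold changes against WT from -0.10 to 0.16 and none was called in either comparison.

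Of the 10 Rab genes of the endoplasmic reticulum and Golgi tested, 3 rose against WT (30.0%, where 5.66% of all genes did). Rab1a, which works between the endoplasmic reticulum and the Golgi, stood at 223, 285, 264, 272, 293 and 267 CPM in WT mice, 228 to 281 in Het and 292 to 321 in Homo mice. The Homo mice were tightly grouped (SD 9.50 CPM), and 9 of the 10 were above every WT and Het mouse. Its log2 fold change was 0.20 ± 0.06 (adjusted p = 0.0327), and it was called in 18 of the 23 fits without 1 mouse, lost without WT F1 (0.14), WT M1, WT M4, Homo F5 or Homo M5, with an adjusted p up to 0.155. It was called in 8 of the 11 other alternatives. Its close relative Rab1b had the opposite sign, -0.13 ± 0.05, and did not pass (adjusted p = 0.102), nor did the difference between Het and WT (-0.14 ± 0.06, adjusted p = 0.583).

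Rab18, found on the endoplasmic reticulum and lipid droplets, was at 75.6 to 107 CPM in WT, 78.5 to 95.8 in Het and 102 to 130 in Homo mice. All 10 Homo mice were above all 7 Het mice and 5 were above every WT mouse. Rab1a also had all 10 Homo mice above all 7 Het mice. The share of all genes with that separation from Het mice was not counted. It rose by 0.26 ± 0.08 against WT (adjusted p = 0.0294) and by 0.39 ± 0.07 against Het (adjusted p = 0.000809, the smallest of any member). Against WT it was lost without WT F1 (0.19), WT M1, WT M4 or Homo M5, with an adjusted p up to 0.122, and was called in 7 of the 11 other alternatives.

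Rab6b, the form of the Golgi Rab6 that is abundant in neurons, was at 42.1 to 54.4 CPM in WT, 38.0 to 59.3 in Het and 38.9 to 75.3 in Homo mice. Of the Homo mice 8 were above every other mouse, and F1 at 38.9 CPM was below every WT mouse. Its rise of 0.35 ± 0.11 (adjusted p = 0.0413) was called in 11 of the 23 fits without 1 mouse and in 8 of the 11 other alternatives. It was lost without any one of WT F1, M1, M2, M3 and M4 or of Homo F2, F4, F5, M2, M3, M4 and M5, with log2 fold changes from 0.31 to 0.41 over the 23 fits and an adjusted p up to 0.0916. The neuronal marker Snap25 was at 4.40 to 19.1 CPM in WT and 0.78 to 3.54 in Homo mice. The part of neuronal RNA in the Rab6b values was not tested. Rab6a, the ubiquitous form, was at 0.01 ± 0.07 (adjusted p = 0.930).

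Rab2a, which acts from the Golgi to the lysosome, was at -0.01 ± 0.06 against WT (adjusted p = 0.933). Rab2b, Rab33b, Rab43 and Rab19 were not called against WT either. Rab19 was the only member called lower in any comparison. It had 2.23 to 4.18 CPM in Het mice, 1.62 to 2.79 in WT and 0.88 to 2.69 in Homo mice, and 7 of the 10 Homo mice were below every Het mouse. The log2 fold change against Het was -0.66 ± 0.23 (adjusted p = 0.0397), and 8 of the 23 fits without 1 mouse lost it, those without Het F2, F3, M1 or M4 or without Homo F1, F2, M4 or M5, with an adjusted p up to 0.0915. It was called in 5 of the 11 other alternatives.

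Among 8 Rab genes of secretion and the plasma membrane tested, 2 rose against WT (25.0%, where 5.66% of all genes did). Rab8b, a Rab of delivery to the cell surface, stood at 154, 199, 211.6, 155, 227.01 and 175 CPM in WT mice, 140 to 239 in Het (median 186) and 196 to 319 in Homo mice (median 246). Its groups overlap, with 7 of the Homo mice above every WT mouse. It rose by 0.42 ± 0.12 (adjusted p = 0.0246) and was lost without WT F1 (0.35), WT M2 or WT M4, with an adjusted p up to 0.0952, and was called in 9 of the 11 other alternatives. Its close relative Rab8a did not differ detectably (-0.0028 ± 0.06, adjusted p = 0.986).

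Rab27a, which docks secretory vesicles and lysosome-related organelles, had 44.0, 42.9, 41.9, 41.8, 43.4 and 45.7 CPM in WT mice, 36.8 to 46.7 in Het and 41.0 to 61.7 in Homo mice. Of the Homo mice 8 were above every other mouse. The log2 fold change was 0.25 ± 0.08 (adjusted p = 0.0269), lost without WT M1, M2 or M3 (adjusted p up to 0.0688) and called in 10 of the 11 other alternatives. Rab3a, Rab3d, Rab10, Rab13 and Rab37 were not called. Rab37 had the largest negative value, -0.73 ± 0.56 (adjusted p = 0.439), at a mean of 0.90 CPM in WT and 0.66 in Homo mice. Of the remaining members Rab23, Rab28 and Rab40c, of cilia and other roles, had values of 0.30, 0.05 and 0.00 and none was called.

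**Figure D2:**
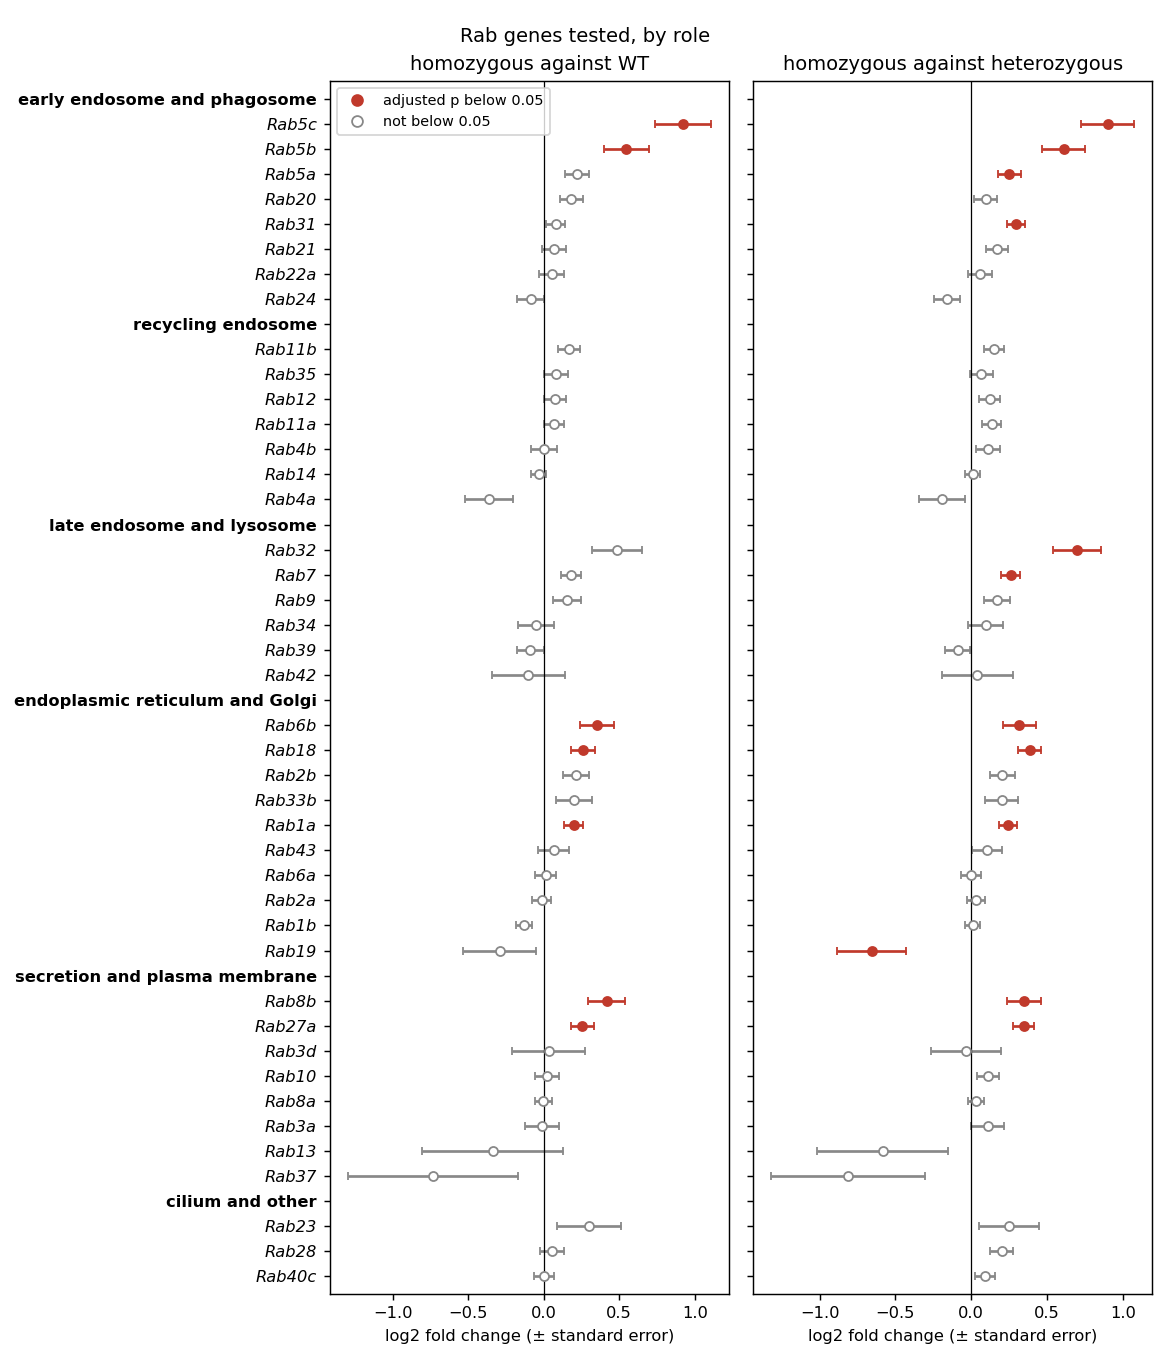
Log2 fold change with its standard error (horizontal axis) for the 42 members tested, ordered by role, with Homo against WT on the left and Homo against Het on the right. Filled points have an adjusted p below 0.05, 7 on the left and 12 on the right, and Rab5c is farthest to the right in both panels.

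The calls depended on single WT mice. Without WT F1 the number called higher fell from 7 to 2 (Rab5c and Rab27a), without WT M1 to 3, without WT M4 to 3 and without WT M2 to 4. The Homo mice of the 300s alone gave 5 higher and 1 lower (Rab4a), and those of the 400s alone gave 4 higher. Rab5c was in each of these sets. Without Homo F1, F2, M1 and M2, the mice with high Fos, 4 members were called, Rab5c, Rab6b, Rab7 and Rab27a. All of these fits hold fewer mice, and the share of all genes called in each is not given here. The counts therefore do not tell whether the members lost calls more often than other genes.

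The second comparison set Homo against Het mice, which both carry Cre and differ in the number of floxed alleles. It shares the Homo mice with the first, so its values are given beside those against WT and not as a second line of evidence. Of the 42 members 11 were called higher (26.2%, where 11.1% of all genes were) and 1 lower (2.38%, against 11.7%). The higher ones were the 7 called against WT together with Rab5a, Rab7, Rab31 and Rab32. Of all members 34 had a positive value and 8 a negative, with a median of 0.11 against 0.00 over all genes. By the DEG rule Rab5c (0.90 ± 0.17, adjusted p = 0.000852), Rab5b (0.61 ± 0.14, adjusted p = 0.00363) and Rab32 were higher, where 2.32% of all genes were, and Rab19 was lower. Rab5c, Rab5b, Rab5a, Rab7, Rab32, Rab31, Rab18, Rab1a and Rab27a were called in all 23 fits without 1 mouse. Rab6b was called in 17 of them, lost without Het F2, F4 or M1 or Homo F2, F4 or M3, with log2 fold changes from 0.26 to 0.38. Rab8b was called in 16, lost without Het F1, F4, M1 or M4 or Homo F1, F5 or M4, with values from 0.27 to 0.41. The adjusted p rose to at most 0.0839 for Rab6b and 0.0823 for Rab8b, and each was called in 8 of the 11 other alternatives.

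**Figure D3:**
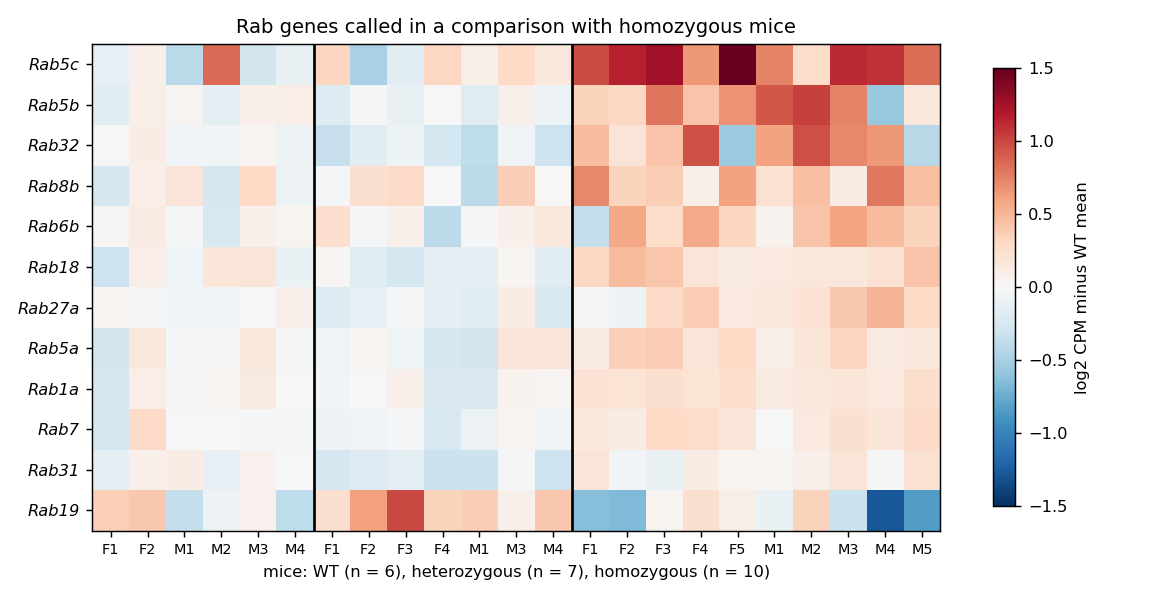
Difference in log2 CPM from the WT mean for each of the 12 members called in a comparison with Homo mice (rows) in each of the 23 mice (columns, grouped by genotype), red for higher and blue for lower. Rab5c is red in all 10 Homo mice and in WT M2. It is also above the WT mean in WT F2 and in Het F1, F4, M1, M3 and M4. Of these, Het F1, F4 and M3 lie above Homo M2. Rab5b is blue in Homo M4, and Rab32 is blue in Homo F5 and M5.

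The third comparison, Het against WT mice, asked whether loss of 1 allele in neurons shifts the family. No member was called by edgeR's quasi-likelihood test, and 0% of all genes were. DESeq2 and limma-voom also called no member. At an unadjusted p below 0.05 there were 2 members of 42 (4.76%) and 998 of all genes (7.73%). The 2 were Rab31 (-0.21 ± 0.07, adjusted p = 0.484) and Rab1b (-0.14 ± 0.06, adjusted p = 0.583), both with 6 of 7 Het mice below every WT mouse. Rab5c was at 0.02 ± 0.20 and Rab5b at -0.06 ± 0.16. The median over the members was -0.04, against 0.00 over all genes.

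The rise in Homo mice was then read within each sex. Within males, Rab27a was the only member called (0.32 ± 0.10, adjusted p = 0.0484), 2.38% of the members where 2.13% of all genes were called higher. Within females, where WT mice number 2, no member was called by edgeR, where 0.170% of all genes were called higher and 0.287% lower. Of the members 11 had an unadjusted p below 0.05 (26.2%, against 14.7% of all genes). Rab5c was at 1.17 ± 0.31 in females and 0.73 ± 0.23 in males, and Rab5b at 0.56 ± 0.26 and 0.54 ± 0.20. No member had a genotype effect that differed between the sexes by edgeR's test (smallest adjusted p = 0.908). At an unadjusted p below 0.05 there were 4 of 42 members (9.52%, against 4.99% of all genes), Rab33b, Rab21, Rab12 and Rab23, named after their values were seen, each with a larger value in females.

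The levels of the members were spread over a wide range. By the level per length, the highest in WT mice were Rab2a (319 ± 30.5), Rab7 (309 ± 39.9), Rab1b (229 ± 12.9), Rab1a (200.7 ± 19.3) and Rab11a (198 ± 20.5). Rab2a and Rab7 differed by less than their spread, as did Rab1a and Rab11a. The 5 highest held 39.4% of the summed level of the family in WT mice and the 10 highest 62.7%. In Homo mice Rab7 was at 375 ± 23.7 and Rab2a at 339 ± 19.8 on this scale. The sum over all members was 3190 ± 164 in WT, 3146 ± 163 in Het and 3659 ± 93.8 in Homo mice, and the Homo range of 3531 to 3786 did not overlap the others. That sum has no TMM normalization, without which the median log2 fold change of all genes is 0.11 and not 0.01. The summed CPM, which has it, was 3912 ± 205, 3758 ± 164 and 4209 ± 91.0, and the ranges of Homo (4027 to 4325) and WT mice (3589 to 4125) overlapped.

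**Figure D4:**
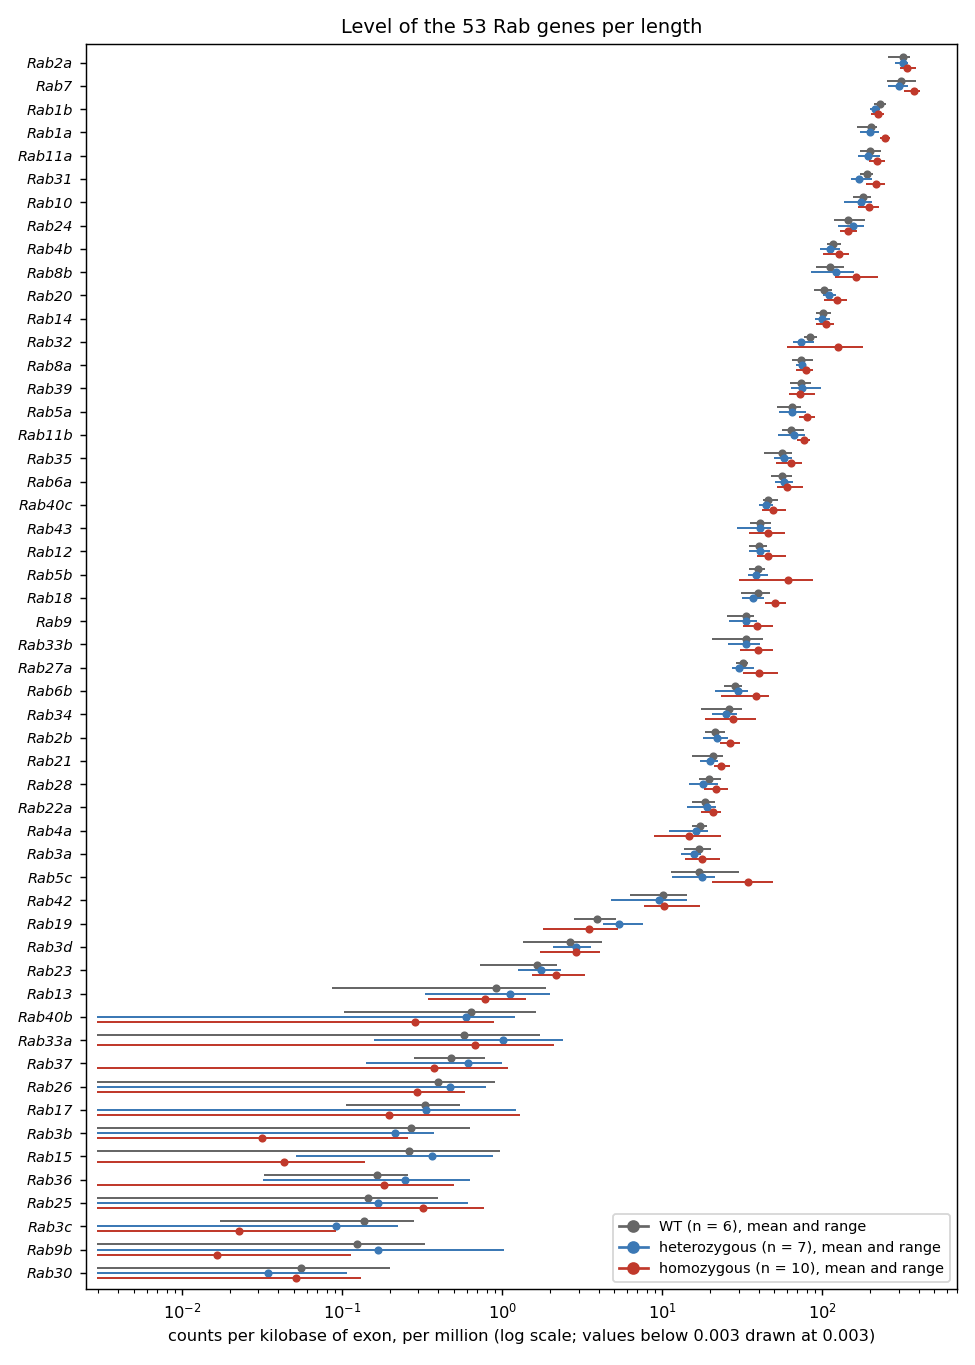
Level of each of the 53 members per length, in counts per kilobase of exon scaled to the same total in every mouse (horizontal log axis), with the mean as a point and the range over mice as a line, for WT, Het and Homo mice, ordered by the WT mean. Rab2a and Rab7 are at the top and the 11 members too low to test are all near the bottom.

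The 11 members too low to test were Rab3b, Rab3c, Rab9b, Rab15, Rab17, Rab25, Rab26, Rab30, Rab33a, Rab36 and Rab40b. Rab26 had 32 counts over the 6 WT, 42 over the 7 Het and 38 over the 10 Homo mice, and Rab36 had 29, 45 and 54. Rab3c, Rab15 and Rab3b, named after their values were seen, had few counts in Homo mice, at 13 counts (48 in WT, 34 in Het) for Rab3c, 10 (34 and 50) for Rab15 and 6 (27 and 24) for Rab3b. Rab3c and Rab3b belong to the Rab3 group of regulated exocytosis, and Rab3c is known from synaptic vesicles. Other members did not move this way. Of the same group, Rab3a was at -0.01 ± 0.11 and Rab3d at 0.03 ± 0.24 against WT, neither called, and Rab6b, abundant in neurons, was higher (0.35 ± 0.11). The neuronal marker sum was lower in Homo mice, as were the counts of Rab3c, Rab15 and Rab3b, and its part in these counts was not tested. At so few counts a difference between the genotypes was not tested.

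Some members share sequence with other transcripts, so that the counting could have moved reads between them. Of the 50-base exon stretches 74.5% were shared in Rab43 (mostly with Gm45140), 58.1% in Rab4b (Gm21983), 57.0% in Rab2b (Gm43766), 49.6% in Rab24 (Prelid1), 22.9% in Rab20, 21.2% in Rab33b, 19.0% in Rab6a, 13.6% in Rab11b and 12.7% in Rab7, and their values are uncertain. Of these 9 members, Rab7 was called against Het and none was called against WT. Rab5c, Rab1a and Rab6b shared none.

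Genes that control or serve Rab GTPases were read from 5 lists, of which 170 genes were in the table and 151 were tested. Against WT 10 were called higher and 4 lower, and against Het 19 higher and 15 lower. These are 6.62% higher and 2.65% lower against WT, where 5.66% and 7.09% of all genes were, and 12.6% and 9.93% against Het, where 11.1% and 11.7% were, so the higher counts are near those of all genes. The lists together had a median log2 fold change of 0.04 and -0.01. Retromer and endosomal sorting genes, which retrieve cargo from endosomes, gave 4 of 19 higher against WT (21.1%, where 5.66% of all genes were) and 7 of 19 against Het (36.8%, where 11.1% were), with none lower. Snx3, a sorting nexin that recruits retromer, rose from 108 ± 10.8 (SD, n = 6) to 132 ± 7.20 CPM (n = 10), a log2 fold change of 0.29 ± 0.07 (adjusted p = 0.00595). Vps29, a core subunit of retromer, rose by 0.26 ± 0.06 (adjusted p = 0.00739). All 10 Homo mice were above every WT mouse, which held for 0.674% of all genes. Snx5, a sorting nexin that forms tubules, rose by 0.21 ± 0.06 (adjusted p = 0.0170), and lost its call without WT F1 (0.18). The fourth was Vps26a, another core subunit outside the rule for named genes, at 0.22 ± 0.07 (adjusted p = 0.0377), while Vps35, which completes the core, did not pass (0.10 ± 0.08, adjusted p = 0.479).

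Of 40 GEF genes tested 3 were higher and 1 lower against WT (7.5% and 2.5%, where 5.66% and 7.09% of all genes were), near the share of all genes for the higher ones. Hps1, part of the GEF of Rab32, rose by 0.33 ± 0.08 (adjusted p = 0.00759). The TRAPP complex subunits Trappc10 and Trappc9 went opposite ways, at 0.42 ± 0.11 (adjusted p = 0.0110) and -0.30 ± 0.08 (adjusted p = 0.0109). The Rab5 GEFs Rin3, Rin2 and Rabgef1, named outside the rule, were not called against WT, with log2 fold changes of 0.08, 0.11 and 0.13, and Rin2 rose against Het (0.29, adjusted p = 0.00166). Among 33 GAP genes none was higher and 2 were lower (6.06%, where 7.09% of all genes were), Tbc1d17 (-0.28 ± 0.07, adjusted p = 0.0107, with all 10 Homo mice below every WT mouse) and Tbc1d4, named outside the rule (-0.60 ± 0.18, adjusted p = 0.0261). The share of all genes with all 10 Homo mice below every WT mouse was not counted. Of 51 effectors and tethers 3 were higher (5.88%, where 5.66% of all genes were), among them Bicd2, a dynein adaptor bound by Rab6 (0.36 ± 0.09, adjusted p = 0.0086), and Rab11fip5, an effector of Rab11 (0.30 ± 0.09, adjusted p = 0.0225), which was lost without WT M2 (0.26), M3 or M4. The Rab5 effectors Eea1, Rabep1 and Appl1, also outside the rule, were at -0.11, 0.02 and 0.14 and not called. Of 8 genes of prenylation and membrane extraction 1 was lower (12.5%, where 7.09% of all genes were), Arl6ip5 (-0.31 ± 0.08, adjusted p = 0.0141), lost without WT M1 (-0.25).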

How the data were processed

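Microglia were sorted as CD11b+ CD45med cells, and libraries were made from 10 ng of total RNA with the SMARTer Ultra Low Input kit and Nextera XT and read as single ends on an Illumina HiSeq instrument. The authors aligned the reads to mm10 with OmicSoft OSA4, using Ensembl genes, and RSEM gave the count of each gene, so the deposited values are expected counts, not normalized for depth or length. The strand setting is not given in the sources used here. Before deposit the authors removed a WT female and a Het male for poor quality, and 2 labelled mice have no column in the table.

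The expected counts were rounded. Of 43411 genes 42929 were matched to GENCODE M21 (GRCm38). Genes kept by filterByExpr were normalized by TMM and tested with edgeR 4.0.16 in R 4.3.3 (quasi-likelihood test, 3 genotypes and sex in one fit, Benjamini-Hochberg adjustment over 12908 genes). A gene was called at an adjusted p below 0.05 and was a DEG with a fold change above 1.5 as well. SE is the log2 fold change over the root of the test statistic. Effects within a sex came from a fit of the 6 groups. CPM is scaled by TMM. P-values test a difference against the spread between mice, which is estimated over all the groups of a fit together.

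One gene of the microglial marker list is not reported here. Members and gene lists were chosen with earlier results of these data known. Named genes were the Rab5 genes and Rab7, members called in any comparison, the 5 highest per length in WT, the 2 highest untested, the 3 largest folds not called against WT, members whose call changed without 1 mouse, and the 10 called regulators with the smallest p. Promoter windows are from RefSeq. In simulated data for Homo against WT (200 changed genes over 12726 tested), edgeR recovered 51.7% of changes of 0.5 and 81.1% of changes of 1 on the log2 scale and called 7 unchanged genes. The simulation changed fewer genes than were called in the data and held no subgroups of Homo mice. Recovery in the data may therefore differ. Alternatives were DESeq2 1.42.0, limma-voom (limma 3.58.1), RLE or no TMM, other filters, no sex term, 2 genotypes alone, each mouse left out, either animal-number range, no mice with high Fos, and the DEG threshold. Depth limits the precision of genes of a few CPM. Figures were drawn with matplotlib 3.10.9.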

Additional observations from a re-analysis of the deposited data

Results flagged for a closer look

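One value was set apart from its group by Dixon's test at the 95% level, among 57 groups of 4 to 10 mice looked at, where chance gives about 1 in 20. Rab5c in WT M2 stood at 22.1 CPM, while the other 5 WT mice ran from 9.30 to 12.98 CPM. The gap to the nearest mouse was 0.713 of the whole range of the group. Without WT M2 Rab5c remained called in Homo against WT mice.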

How the results depend on the processing

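For Homo against WT mice, where 7 members were called higher, DESeq2 called 10, limma-voom 6, RLE 7 and the fit of the 2 genotypes alone 5. Library totals without TMM gave 14, Homo mice of the 400s alone 4, the fit without Homo F1, F2, M1 and M2 4 and the DEG threshold 1, and fits without 1 mouse gave 2 to 8. Members called lower, 0 in the reported fit, came to 1 with no filter beyond 1 count in 10 mice and 1 with Homo mice of the 300s alone, and to 0 to 1 without 1 mouse. For Homo against Het mice, with 12 called, Homo mice of the 400s alone gave 7 and the DEG threshold 4, and fits without 1 mouse 9 to 13. Regulators called against WT, 14 in the reported fit, came to 24 without TMM, 8 with Homo mice of the 400s and 1 with the DEG threshold, and to 10 to 16 without 1 mouse. Het against WT stayed at 0 under every alternative run. The share of all genes called under each alternative is not given here, so these counts cannot be set against it. Without TMM the median log2 fold change of all genes moved by 0.10, so values under that setting are relative to this shift. Rab2a, at -0.012 against WT, changed sign without TMM (0.091), with Homo mice of the 400s (0.013) and without WT M1 (0.020), WT M3 (0.0098), Homo M1 (0.0015) or Homo M4 (0.0003), and fits without 1 mouse ran from -0.081 to 0.020. Over the single genes named, alternatives kept direction and call in 836 cases, 61 lost a call, 15 gained one and 6 changed sign. The cause of these changes was not tested. No paired analysis was possible because the labels give no litter or pair that links mice of different genotypes, and replicate names shared between genotypes mark no pairing. With 6 WT mice, 2 of them female, the WT group limits the comparison, and the animal-number ranges and genotypes cannot be told apart.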
